A study of Mus musculus with 85 samples.

Results

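The mitochondrial genome of the mouse is a circle of DNA that stays in the organelle and is copied and transcribed there, apart from the chromosomes of the nucleus. Every row of the expression table whose symbol starts with "mt-" was taken, which gave 37 of 37368 named genes: 13 mRNAs, 2 ribosomal RNAs (rRNAs) and 22 transfer RNAs (tRNAs). The rule used no measured value. All 37 names matched genes on the mitochondrial chromosome in GENCODE vM21, an annotation of the mouse genome build GRCm38 (mm10).

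The libraries came from preimplantation embryos of B6C3F1/J mice, labelled wild type, that were cultured to fixed ages after the hormone injection (hCG) that triggers ovulation. The standard medium was KSOM, a salt solution for mouse embryos, with 5 mM L-lactate, 0.2 mM pyruvate and 0.2 mM glucose. In this medium embryos were taken as early (34 h, n = 3), mid (42 h, n = 4), late (48 h, n = 3) and very late (52 h, n = 3) 2-cell embryos. Older standard groups were early (55 h, n = 4) and late (62 h, n = 4) 4-cell, early (66 h, n = 3) and late (74 h, n = 2) 8-cell, morula (78 h, n = 6), early 16-cell (80 h, n = 5), early 32-cell (90 h, n = 4) and blastocyst (114 h, n = 4). Embryos without pyruvate, with the other nutrients kept, were taken as mid (42 h, n = 4), late (48 h, n = 5), very late (52 h, n = 4) and latest (55 h, n = 4) 2-cell embryos. At 55 h the standard embryos were at the 4-cell stage, so the comparison at 55 h also compares stages. Morulae at 78 h were grown without pyruvate (n = 5), without lactate (n = 5), or without pyruvate and with 20 nM KY-PYR-9 (n = 4), a compound that the labels call a MYC inhibitor. Blastocysts at 114 h were grown without pyruvate (n = 5) or without lactate (n = 4). The sample titles of the inhibitor group name only a treatment with myc. The sources used here do not say how many embryos made a library or whether replicates came from separate cultures, so p-values measure the spread between these libraries only.

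Mitochondrial DNA encodes subunits of 4 of the 5 complexes of oxidative phosphorylation. The mt-Nd genes encode subunits of complex I (NADH dehydrogenase), mt-Cytb the cytochrome b of complex III, the mt-Co genes the core of complex IV (cytochrome c oxidase), and mt-Atp6 and mt-Atp8 subunits of complex V (ATP synthase). The rRNAs and tRNAs serve the organelle's own ribosomes. Both strands are transcribed as long precursors, which are cut mostly at the tRNAs that stand between the other genes, and most of the mRNAs then receive short poly(A) tails. The oocyte supplies the mitochondria of the early embryo, and copying of their DNA is low before implantation. The libraries were made by Smart-seq2, which primes on poly(A) with oligo-dT and keeps no record of strand.

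The 3′ ends bear on what such a primer reads, and the last bases of 7 mRNAs are shown 5′ to 3′ with the stop codon, or the base that remains of it, in capitals. In mt-Cytb, mt-Co3 and mt-Nd4 the gene ends in a lone T, and the poly(A) tail completes the stop codon.
mt-Nd1, chrM:3678-3707, plus strand: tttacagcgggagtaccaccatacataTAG
mt-Co1, chrM:6843-6872, plus strand: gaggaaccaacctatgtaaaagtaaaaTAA
mt-Atp8, chrM:7940-7969, plus strand: tatttgcctcattcattaccccaacaaTAA
mt-Co3, chrM:9361-9390, plus strand: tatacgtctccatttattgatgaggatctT
mt-Nd4l, chrM:10144-10173, plus strand: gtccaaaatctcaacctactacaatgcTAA
mt-Nd4, chrM:11515-11544, plus strand: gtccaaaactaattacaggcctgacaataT
mt-Cytb, chrM:15259-15288, plus strand: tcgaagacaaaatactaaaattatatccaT
The ends of mt-Atp8 and mt-Nd4l lie inside the genes that follow them: mt-Atp8 overlaps mt-Atp6 by 43 bases and mt-Nd4l overlaps mt-Nd4 by 7 bases, and each pair is carried on a single mRNA.

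Runs of A inside a transcript can also pair with oligo-dT, and the longest runs of the rRNAs and of mt-Nd2 are given in capitals. They measured 5 bases in mt-Rnr1, 7 in mt-Rnr2 and 8 in mt-Nd2; whether priming took place at them was not tested.
mt-Rnr1, chrM:693-721, plus strand: tcagcaaaccctAAAAAggtattaaagta
mt-Rnr2, chrM:1476-1506, plus strand: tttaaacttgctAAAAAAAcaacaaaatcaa
mt-Nd2, chrM:4040-4071, plus strand: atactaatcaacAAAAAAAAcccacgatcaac
The 3 tRNA genes whose rows held more than 1 CPM (count per 1000000 reads) in all 85 libraries are shown whole, on their own strand.
mt-Tl1, chrM:2676-2750, plus strand: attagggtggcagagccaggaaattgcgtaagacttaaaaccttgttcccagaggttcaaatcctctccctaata
mt-Tq, chrM:3772-3842, minus strand: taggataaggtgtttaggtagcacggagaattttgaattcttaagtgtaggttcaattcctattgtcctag
mt-Ts1, chrM:6870-6938, minus strand: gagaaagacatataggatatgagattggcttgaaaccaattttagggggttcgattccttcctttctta
On the opposite strand, mt-Ts1 overlaps the last 3 bases of mt-Co1, and mt-Tq lies opposite to the precursor that links mt-Nd1 with mt-Nd2. Without strand, reads of these tRNAs and of the precursors across them cannot be told apart. The same limit covers mt-Nd6, a minus-strand mRNA that overlaps mt-Nd5 by 14 bases and lies opposite to the precursor linking mt-Nd5 with mt-Cytb. Its values below may hold reads of that precursor.

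Nuclear DNA holds copies of mitochondrial genes, and reads of such a pair can be split between both. Comparing annotated transcripts found 11 nuclear genes that matched a member over at least 100 bases at 95% identity or more, all with a row in the table. Among them were Gm10925, which matched mt-Atp6 over 678 bases at 100% and averaged 5319 CPM, Gm28437 (a copy of mt-Co3, 2095 CPM), Gm28661 (mt-Co2, 1541 CPM), Gm29216 (mt-Co1, 1026 CPM) and Gm10222, which matched mt-Nd4l over 294 bases at 100% and averaged 358 CPM. Their summed level was 4.33% to 28.3% of that of the members, with a median of 17.9%. Values of mt-Atp6, mt-Co1, mt-Co2, mt-Co3 and mt-Nd4l are therefore uncertain in size. The shares, the rRNA percent, the ratios, the make-up by complex and the single-gene tests were also computed with the 7 copies on chromosome 1 added to their members.

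Libraries held 10.2 to 42.6 M reads (median 19.6 M, where M is 1000000), estimated from the CPM step that 1 read makes, of which 0.0821 to 3.33 M lay in the members. Column names of the standard blastocysts carry the tag PVA, which no other column used here carries. What part it had was not tested, and comparisons with standard blastocysts cannot tell it apart from stage or medium. Morula replicates 1 and 2 in standard medium had the most mitochondrial rRNA of the 6 morulae. Part of the calls and values for standard morulae that change without these 2 replicates is given both ways, and the others with all 6 only. Morulae (78 h) and early 16-cell embryos (80 h) are of like age, and the sources used here do not say whether they came from 1 experiment. The inhibitor morulae held 11688 to 11964 genes above 1 CPM, fewer than the 14087 to 14997 of morulae without pyruvate, which were sequenced deeper (34.0 to 38.0 against 15.9 to 21.6 M reads). Markers of cumulus cells, which surround the oocyte, summed to 5.05 to 100.1 CPM and those of sperm to at most 4.23 CPM over all libraries. Oocyte markers summed to 0.0354 to 27652 CPM over all libraries, with the highest level in the no pyruvate mid 2-cell group, and trophectoderm markers summed to 15257 to 20833 CPM in standard blastocysts. The part of other cells in the results was not tested.

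Members differed widely in level. Averaged over the 85 libraries, mt-Cytb was the highest at 18623 CPM per kilobase, followed by mt-Atp6 (8899.9), mt-Atp8 (8851) and mt-Nd1 (8153). The rRNAs, which carry only short tails, stood at 2537 CPM per kilobase for mt-Rnr2 and 280.0 for mt-Rnr1. At the low end of the mRNAs were mt-Nd3 (553 CPM per kilobase) and mt-Nd6 (427), the only mRNA of the minus strand. Among the tRNAs, mt-Ts1 reached 2813 CPM per kilobase, while mt-Ts2 and mt-Ty passed 1 CPM in only 8 and 9 libraries. All 13 mRNAs, both rRNAs and the 3 tRNAs shown above passed 1 CPM in every library.

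The share of the library taken by the 37 genes ranged from 0.235% to 13.4%, with a median of 5.83%. In libraries of whole embryos a lower share and more RNA of other genes cannot be told apart, nor can fewer cells of a type and less RNA per cell. In standard medium it was 2.83, 3.77 and 3.53% in the early 2-cell libraries and 3.38% ± 0.489 (SD, n = 3) on average. In mid 2-cell embryos it was 6.60 to 7.88%, and in late 2-cell embryos 10.6, 9.05 and 8.68%, so that every later library lay above every earlier one across these 3 ages. Very late 2-cell embryos gave 7.71% ± 1.87 (SD, n = 3) and early 4-cell embryos 4.38% ± 0.624 (SD, n = 4), again without overlap. None of these steps passed adjustment over the 29 comparisons: the exact two-sided permutation test gave p = 0.0286 for 42 h against 34 h, which is the smallest that 3 against 4 libraries allow, and an adjusted p of 0.0732.

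From the 4-cell stage on, libraries of several standard groups were spread widely. Late 4-cell libraries held 5.38, 4.56, 3.95 and 0.844%, and late 8-cell libraries 2.92 and 1.06%. Early 8-cell embryos gave 4.65% ± 0.910 (SD, n = 3) and morulae 3.58% ± 2.52 (SD, n = 6, 1.37 to 8.27%). Early 16-cell and early 32-cell libraries lay closer together, at 5.75% ± 0.503 (SD, n = 5) and 5.90% ± 0.118 (SD, n = 4). Blastocysts spread from 1.79 to 10.6% (6.32% ± 3.91, SD, n = 4). Ordered by mean, the standard groups ran from late 8-cell, early 2-cell, morula, late 4-cell, early 4-cell and early 8-cell to early 16-cell, early 32-cell, blastocyst, mid, very late and late 2-cell, and none of the 11 steps between consecutive stages passed adjustment. Apart from the steps into early 16-cell and early 32-cell embryos, the smallest exact permutation p that the groups allow was 0.0286 to 0.1. Not passing therefore does not show that there was no change.

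**Figure D1:**
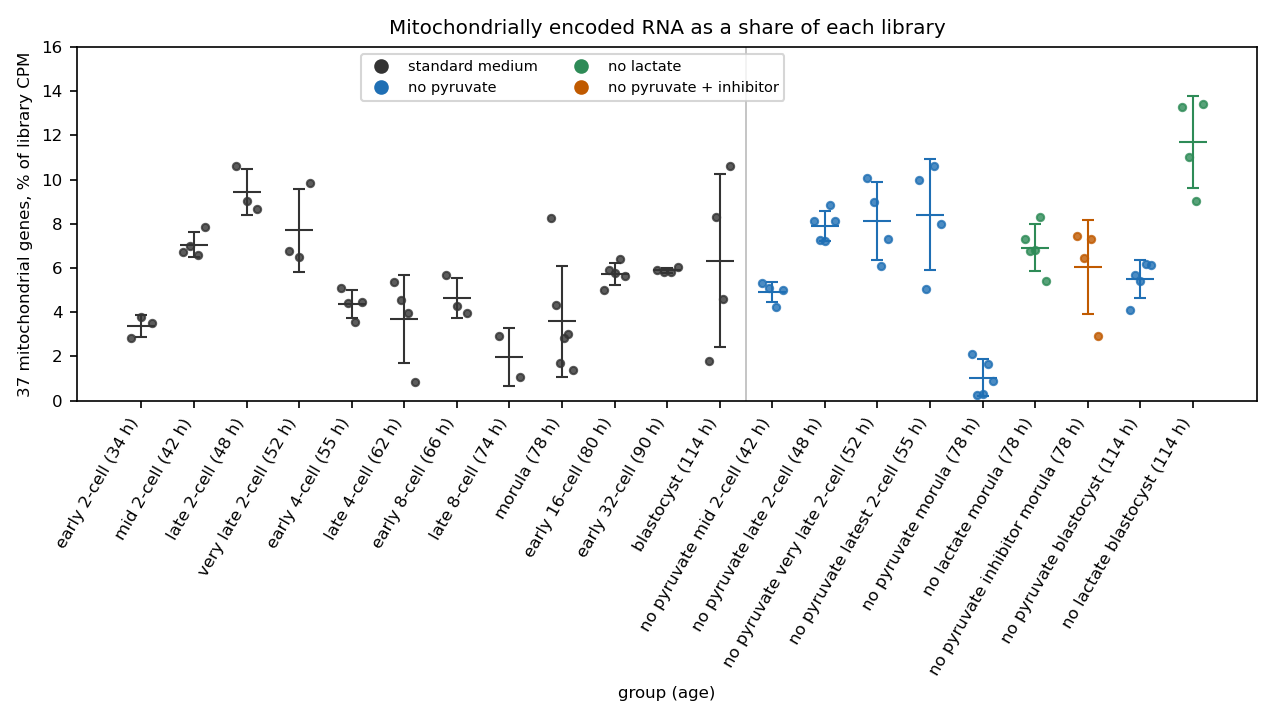
Share of each library taken by the 37 mitochondrially encoded genes (y axis, percent of the library's CPM) in the 21 groups, with 1 point per library and bars for the group mean and SD. The 5 morulae without pyruvate lie between 0.235% and 2.09%, and the blastocysts without lactate between 9.05% and 13.4%.

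Of the 29 comparisons of the share 6 passed adjustment, each at an exact two-sided permutation p of 0.00794, the smallest that 4 against 5 or 5 against 5 libraries allow for them, with an adjusted p of 0.0384. Without pyruvate the share rose from 5.31, 5.09, 4.25 and 5.02% at 42 h to 8.13, 7.28, 7.23, 8.85 and 8.12% at 48 h. It was lower in morulae without pyruvate (2.09, 0.235, 0.294, 1.67 and 0.903%) than in morulae without lactate (7.30, 6.79, 6.81, 8.32 and 5.42%), a difference of 5.89 percentage points. Morulae without pyruvate that also had the inhibitor stood higher than those without it, at 7.47, 6.46, 7.29 and 2.94%. Blastocysts without pyruvate (4.12, 5.67, 5.42, 6.19 and 6.16%) lay below those without lactate (9.05 to 13.4%), and in both media the blastocysts were above the morulae. In each of these 6 comparisons the groups did not overlap, and the same 6 passed with the nuclear copies added to the members. On the log2 scale the inhibitor comparison no longer passed, and from mRNAs alone that of blastocysts with morulae without lactate did not. In the 4 of them with 4 against 5 libraries, leaving out any library gave an adjusted p of 0.0732, since fewer libraries allow only larger p-values.

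Against standard medium the share differed in several comparisons that did not pass adjustment. Mid 2-cell embryos without pyruvate gave 4.92% ± 0.459 against 7.05% ± 0.574 (exact permutation p = 0.0286, adjusted p = 0.0732). Morulae without pyruvate averaged 1.04% ± 0.827 (SD, n = 5) against 3.58% ± 2.52 in standard medium (exact permutation p = 0.0303, adjusted p = 0.0732), and morulae without lactate 6.93% ± 1.05 (exact permutation p = 0.0303, adjusted p = 0.0732). Morula replicates 1 and 2 also had the highest shares of the standard morulae (8.27 and 4.33%), so leaving them out lowers the standard mean. Without them the gain without lactate was 4.70 percentage points and passed (exact permutation p = 0.00794, adjusted p = 0.0329), as did the difference of early 16-cell embryos from morulae (3.52 percentage points, adjusted p = 0.0329). That choice of replicates favours both of these calls. The difference without pyruvate was then -1.18 percentage points with an exact permutation p of 0.0873. Inhibitor morulae averaged 6.04% ± 2.11 (SD, n = 4), a difference from standard medium that did not pass with all morulae (exact permutation p = 0.157, adjusted p = 0.253), nor without morula replicates 1 and 2 (3.82 percentage points, adjusted p = 0.104). Blastocysts without lactate averaged 11.7% ± 2.08 (SD, n = 4), above the standard mean, but 1 of the 4 standard libraries fell in their range (exact permutation p = 0.0571, adjusted p = 0.11).

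The make-up of the mitochondrial mRNA, described here without a test because the parts add up to a whole, differed between stages. In early, mid and late 2-cell embryos mt-Cytb, the subunit of complex III, took 32.6% ± 0.412, 34.8% ± 0.828 and 35.1% ± 1.44 (SD) of the summed mRNA of the 13 genes. It took 52.5% ± 0.533 in very late 2-cell embryos and 61.4% ± 1.27 in early 8-cell embryos, and 30.6% ± 0.824 in early 16-cell embryos. The 2 subunits of complex V ran the other way, from 24.8% ± 1.41 in early 2-cell embryos to 4.63% ± 0.336 in early 8-cell embryos and 19.0% ± 0.448 in early 16-cell embryos. Complex IV took 15.8% ± 0.975 in early 2-cell, 5.99% ± 0.348 in late 8-cell embryos and 25.1% ± 8.25 in blastocysts, whose 4 libraries ranged from 15.1 to 34.0%. The 7 complex I mRNAs took between 26.6% and 37.3% on average over the standard groups.

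Morulae without lactate had the highest complex III share of the 21 groups (65.1% ± 2.09), and morulae with the inhibitor the highest complex V share among those at 78 h, 22.1% ± 2.10 against 6.49% ± 1.99 in standard medium. Without morula replicates 1 and 2 the standard value was 7.10% ± 1.90. With the nuclear copies added, complex V took 30.3% ± 1.68 in inhibitor morulae, 9.33% ± 2.63 in standard morulae and 26.5% ± 0.323 in early 16-cell embryos.

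**Figure D2:**
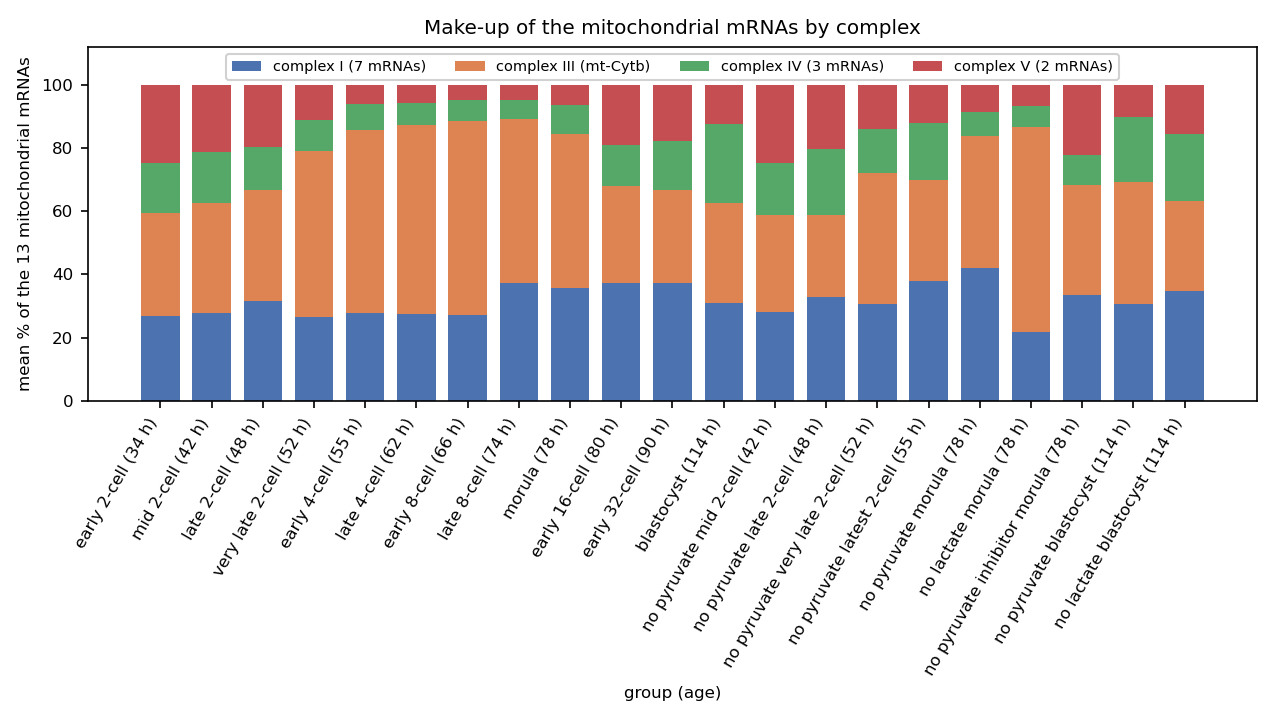
Share of the summed mitochondrial mRNA taken by the subunits of complexes I, III, IV and V (y axis, mean percent, stacked to 100%) in the 21 groups. Complex III (mt-Cytb) averages 61.4% in early 8-cell embryos and 65.1% in morulae without lactate, and complex V 4.63% in early 8-cell embryos and 22.1% in inhibitor morulae.

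Mitochondrial rRNA took 2.81% ± 0.0435 (SD, n = 3) of the mitochondrial total in early 2-cell embryos, 3.38% ± 0.676 (SD, n = 4) in early 4-cell and 9.90% ± 3.35 (SD, n = 2) in late 8-cell embryos. It reached 14.1% ± 1.21 (SD, n = 5) in early 16-cell embryos and was 8.21% ± 0.480 (SD, n = 4) in early 32-cell embryos. The 6 morulae ranged from 7.89 to 24.1%, and the highest, replicate 1, had mt-Rnr2 at 18655 CPM against 1753 to 6248 CPM in the other 5. Without pyruvate the rRNA percent in the 2-cell embryos was 3.46, 4.50, 6.36 and 7.80 at 42, 48, 52 and 55 h, and in blastocysts it was 4.90% ± 1.35 without pyruvate and 11.7% ± 4.36 without lactate. Of the 29 comparisons 10 had an exact permutation p under 0.05 and 0 passed adjustment (lowest adjusted p 0.0575). In 13 of the 29 the groups did not overlap. The lowest exact permutation p was 0.00794, the smallest that 4 against 5 or 5 against 5 libraries allow.

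Single genes were tested with limma on log2(CPM + 1) over all genes of the table, so each change that follows is on that log2 scale, ± its standard error (SE), with p-values adjusted over all genes tested. From early to late 2-cell embryos 35 of the 37 members rose and 0 fell, where 57.7% of all 20158 genes tested rose and 13.7% fell. The median change was 1.71 over the 13 mRNAs and 2 rRNAs and 0.85 over all genes. The complex I gene mt-Nd6 was at 50.5, 54.1 and 48.1 CPM in early and at 413, 285 and 335 CPM in late 2-cell libraries, a rise of 2.72 ± 0.68 (adjusted p = 0.000459). Its partner on the other strand, mt-Nd5, went from 463, 584 and 519 to 3166, 2809 and 3124 CPM, a rise of 2.54 ± 0.62 (adjusted p = 0.000397). All late libraries were above all early ones in both genes. The small rRNA mt-Rnr1 rose by 2.51 ± 0.72 and mt-Cytb by 1.58 ± 0.51, whereas mt-Co1 (1.02 ± 0.68, adjusted p = 0.175) did not pass. With median-ratio scaling, which sets the median change of all genes near 0 (0.06), none of the 15 passed, their median was 0.24, and the changes of mt-Nd1, mt-Co1, mt-Co3, mt-Atp6 and mt-Atp8 were below 0.

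Between late 2-cell and early 8-cell embryos 26 of 37 members fell and 0 rose, beside 47.9% of all genes that fell and 24.5% that rose. Of the 15 mRNAs and rRNAs 10 fell. The 2 complex V genes were among them: mt-Atp6 went from 15230.3, 13332 and 11719.6 to 1974, 1658 and 1558 CPM without overlap and fell by 2.96 ± 0.38 (adjusted p = 6.4e-09), and mt-Atp8 fell by 4.02 ± 0.43. Of complex I and IV, mt-Nd4l fell by 4.28 ± 0.50, mt-Nd3 by 3.65 ± 0.64 and mt-Co2 by 3.35 ± 0.47. By contrast mt-Cytb was at 36027, 31706 and 27804 CPM in late 2-cell and 33563, 24349 and 22868 CPM in early 8-cell libraries, with overlap and a change of -0.26 ± 0.51 (adjusted p = 0.665). The complex I gene mt-Nd2 also overlapped, at 4810.1, 3491 and 3862 CPM in late 2-cell and 4818, 3761 and 3653 CPM in early 8-cell libraries (0.01 ± 0.57, adjusted p = 0.99). Changes of mt-Nd6, -0.20 ± 0.68 (adjusted p = 0.798), of mt-Rnr2, -0.31 ± 0.63 (adjusted p = 0.676), and of mt-Co1, -1.33 ± 0.68 (adjusted p = 0.0746), did not pass. The median of the 15 was -1.89, against -0.46 over all genes.

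From early 8-cell embryos to blastocysts 7 members rose and 8 fell, where 17.1% of all genes rose and 44.0% fell. The 7 that rose were mRNAs: mt-Co3 by 2.89 ± 0.51, mt-Co2 by 2.38 ± 0.44, mt-Atp8 by 2.15 ± 0.40, mt-Nd4l by 1.86 ± 0.46, mt-Co1 by 1.61 ± 0.63, mt-Atp6 by 1.39 ± 0.36 and mt-Nd1 by 1.28 ± 0.36. Blastocyst libraries of mt-Co1 ran over more than 10-fold, at 1376, 15918, 4679 and 19873 CPM, and the lowest of them lay below all early 8-cell libraries (2839, 2182 and 1715 CPM). The mRNA that fell was mt-Nd2, from the early 8-cell values above to 195, 1216, 323 and 1139 CPM, a drop of 2.89 ± 0.53 without overlap. Among the tRNAs mt-Tl1 fell from 27.3, 22.8 and 20.3 to 1.56, 3.65, 1.72 and 6.75 CPM, by 2.61 ± 0.30. The median of the 15 was 0.32 and that of all genes -0.36.

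**Figure D3:**
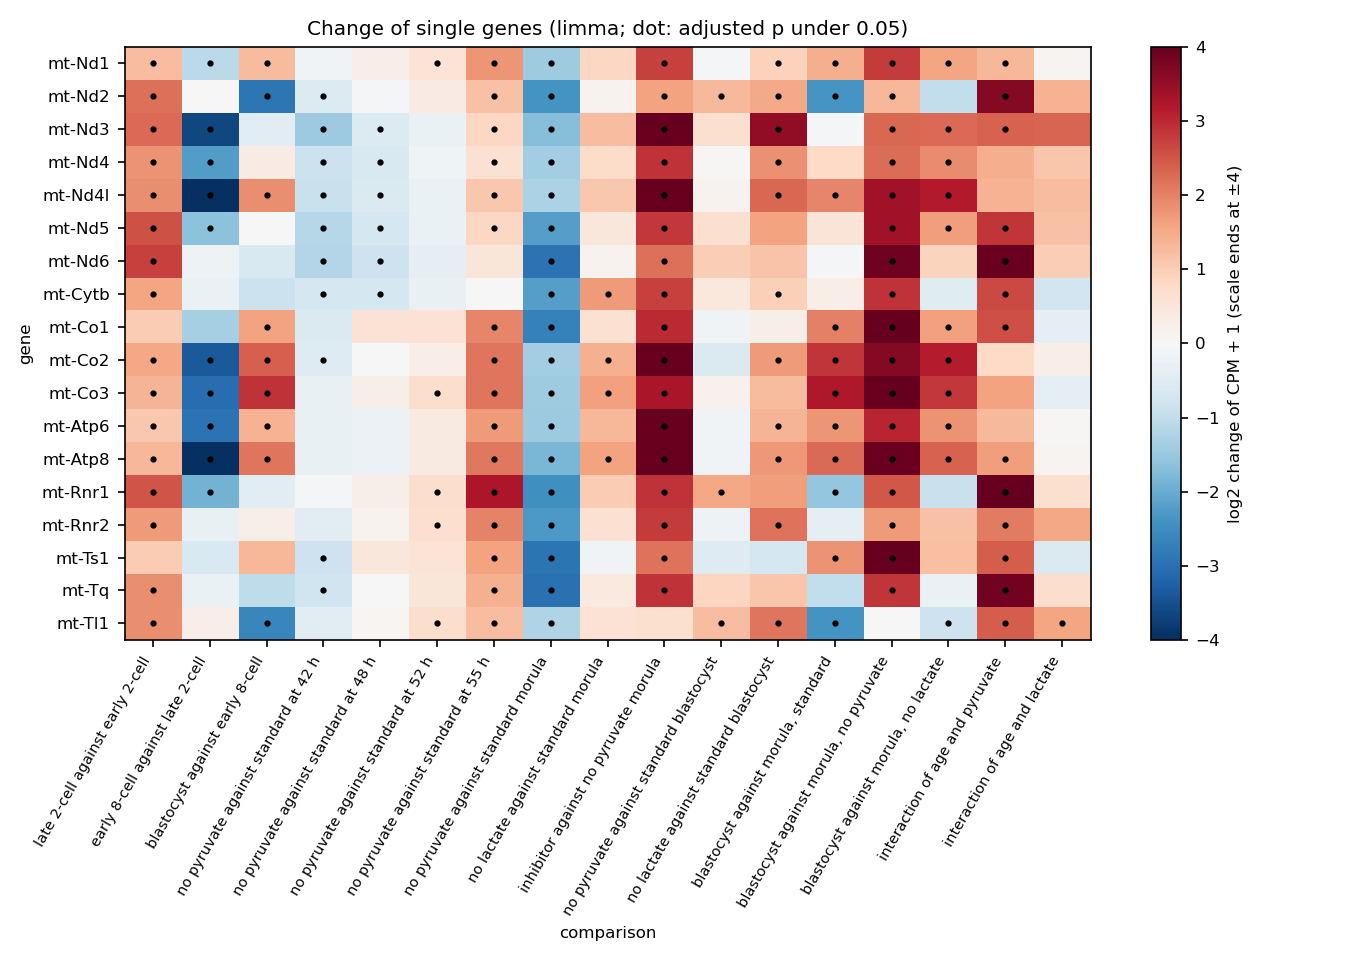
Log2 change of each of the 13 mRNAs, 2 rRNAs and 3 tRNAs detected in all libraries (rows) in the 17 comparisons (columns), as colours from blue (lower) to red (higher) on a scale that ends at ±4, with a dot where the adjusted p is under 0.05. Changes without pyruvate in morulae are all negative and those of inhibitor against no pyruvate morulae all positive.

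Each of these complexes also needs subunits that are encoded in the nucleus. The 71 nuclear subunits of complexes I, III, IV and V listed here took 0.171% ± 0.0151 (SD, n = 3) of the library in early 2-cell embryos, 0.442% ± 0.0291 in late 2-cell, 0.977% ± 0.0873 in early 8-cell embryos and 3.84% ± 0.306 in blastocysts. The ratio of mitochondrial mRNA to this nuclear sum averaged 19.0, 28.3, 20.5 and 13.3 in early, mid, late and very late 2-cell embryos, and 5.61, 4.06, 4.56 and 1.67 in early and late 4-cell and early and late 8-cell embryos. It was 2.61 ± 1.50 (SD, n = 6) in morulae, or 1.90 ± 0.768 without replicates 1 and 2, 4.45 ± 0.467 (SD, n = 5) in early 16-cell and 3.77 ± 0.0827 (SD, n = 4) at the early 32-cell stage. Blastocysts averaged 1.56 ± 1.02 (SD, n = 4). Of the 29 comparisons of the ratio 13 had an exact permutation p under 0.05 and 0 passed adjustment (lowest adjusted p 0.0658). In the limma tests 57 of the 71 rose and 4 fell from early to late 2-cell embryos (median 2.47), beside 57.7% and 13.7% of all genes. With median-ratio scaling 41 rose and 17 fell, beside 36.0% and 33.7% of all genes. From there to early 8-cell embryos 58 rose and 3 fell (median 1.58), beside 24.5% and 47.9% of all genes, at the step where 10 of the 15 mitochondrial genes fell. From early 8-cell embryos to blastocysts 66 rose and 1 fell (median 1.77), beside 17.1% and 44.0%. Cox7b, a subunit of complex IV, rose by 3.89 ± 0.25 there, and Uqcrc1, a core protein of complex III, by 5.43 ± 0.28 from early to late 2-cell embryos.

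**Figure D4:**
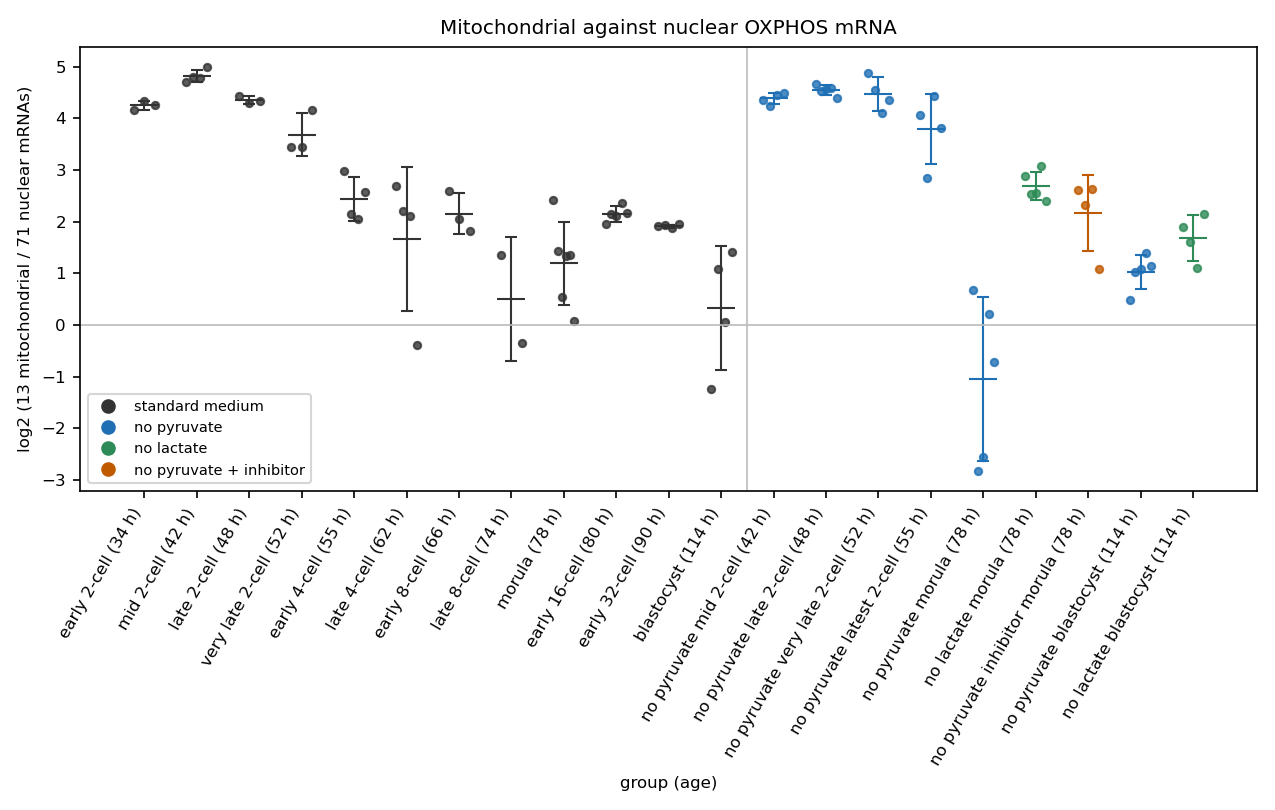
Log2 of the ratio of summed mitochondrial mRNA to the summed mRNA of 71 nuclear subunits of complexes I, III, IV and V (y axis) in each library of the 21 groups, with bars for the mean and SD. Mid 2-cell embryos in standard medium have ratios of 26.2 to 31.8 and blastocysts of 0.423 to 2.67, of which 1 lies below 0 on the log2 axis.

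The proteins that transcribe and process mitochondrial RNA are encoded in the nucleus. Of 24 genes for transcription and upkeep of mitochondrial DNA 18 rose and 3 fell from early to late 2-cell embryos (median 1.20), where 57.7% of all genes rose and 13.7% fell. With median-ratio scaling 8 rose and 7 fell, near the 36.0% and 33.7% of all genes in that scaling. Tefm, the elongation factor of the mitochondrial RNA polymerase, rose by 5.05 ± 0.21, Ssbp1, which binds single-stranded mitochondrial DNA, by 3.86 ± 0.20, and Twnk, the helicase that opens the DNA for copying, by 3.38 ± 0.48. Of 31 tested genes for processing and stability of the RNA 19 rose and 5 fell (61.3% and 16.1%, near the shares of all genes). Among those that rose was Trmt10c, part of the enzyme that cuts the 5′ ends of tRNAs, at 4.33 ± 0.32. With median-ratio scaling 12 of the 31 rose and 12 fell, beside 36.0% and 33.7% of all genes. From early 8-cell embryos to blastocysts 16 of the 24 transcription genes fell and 3 rose (median -1.36), beside 44.0% and 17.1% of all genes. Polrmt, the RNA polymerase itself, fell by 3.97 ± 0.19 and Twnk by 3.55 ± 0.44. With median-ratio scaling 9 of the 24 fell and 6 rose, beside 27.3% and 34.4% of all genes. Of 9 tested nuclear regulators 8 rose from early to late 2-cell embryos, with Gabpa, a subunit of the factor GABP (NRF-2), by 7.70 ± 0.20. From early 8-cell embryos to blastocysts 7 of the 9 fell and 1 rose, in both scalings.

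Without pyruvate 23 of the 37 members were lower and 0 higher at 42 h, where 31.2% of all 20736 genes tested were lower and 5.58% higher. Of the 15 mRNAs and rRNAs 8 were lower, with a median of -0.54 against -0.26 for all genes. In mt-Nd3 the drop was 1.44 ± 0.16, in mt-Nd6 1.18 ± 0.21 and in mt-Nd5 1.15 ± 0.19, 3 subunits of complex I. Libraries of mt-Nd5 were at 735, 574, 501 and 652 CPM without and 1180.0, 1380.4, 1236 and 1679.8 CPM with pyruvate, with no overlap. The change of mt-Nd1 was -0.13 ± 0.18 (adjusted p = 0.652) and that of mt-Atp6 -0.30 ± 0.16 (adjusted p = 0.141), neither of which passed. Under median-ratio scaling 3 of the 15 were lower, beside 21.7% of all genes.

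At 48 h 8 members were lower and 0 higher, beside 34.3% and 22.6% of all genes. Of the 6 mRNAs among them 5 encode complex I subunits: mt-Nd6 fell by 0.82 ± 0.22, mt-Nd5 by 0.70 ± 0.19, mt-Nd4 by 0.61 ± 0.18, mt-Nd4l by 0.58 ± 0.19 and mt-Nd3 by 0.55 ± 0.17, with mt-Cytb at 19589, 18450.2, 17116, 21965 and 20692 CPM against 36027, 31706 and 27804 CPM (a drop of 0.70 ± 0.18). None of the 6 stayed lower with median-ratio scaling, under which 3 of the 15 were higher, beside 30.4% of all genes. At 52 h 6 members were higher and 2 lower, where 31.9% of all genes were higher and 31.3% lower. Those higher included mt-Co3 (0.70 ± 0.19), mt-Nd1 (0.54 ± 0.20), mt-Rnr1 (0.71 ± 0.25) and mt-Rnr2 (0.68 ± 0.21), and the count of the 15 was 1 without very late 2-cell replicate 2 and 7 without replicate 3.

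At 55 h 30 of 37 members were higher in the latest 2-cell embryos without pyruvate than in standard 4-cell embryos and 0 lower, where 37.7% of all genes were higher and 19.5% lower. Of the 15, 13 were higher, with a median of 1.72 against 0.27 for all genes. The rRNA mt-Rnr1 was at 1293, 524, 1179 and 892 CPM without pyruvate and at 78.7, 123, 94.7 and 99.7 CPM in the 4-cell embryos, a difference of 3.22 ± 0.23 (adjusted p = 1.06e-13) with no overlap. Complex IV and V genes differed by 2.15 ± 0.19 (mt-Co2), 2.13 ± 0.18 (mt-Co3), 1.95 ± 0.28 (mt-Co1), 2.10 ± 0.17 (mt-Atp8) and 1.72 ± 0.16 (mt-Atp6). The 2 that did not pass were mt-Cytb (-0.03 ± 0.18, adjusted p = 0.919) and mt-Nd6 (0.47 ± 0.21, adjusted p = 0.0576). Stage and medium cannot be told apart in this comparison.

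More nuclear genes of the lists were lower than higher in these 2-cell embryos without pyruvate. At 48 h 42 of the 71 nuclear subunits were lower and 11 higher (median -0.89), at 52 h 52 and 5 (median -0.99), and at 55 h 42 and 3 (median -0.59). Over all genes 34.3%, 31.3% and 19.5% were lower at these ages and 22.6%, 31.9% and 37.7% higher. Of the 24 transcription genes 11 were lower and 2 higher at 48 h, Tefm by 2.71 ± 0.26, Twnk by 2.33 ± 0.24 and Polrmt by 2.04 ± 0.25. Of the 9 regulators 7 were lower at 42 h, when 31.2% of all genes were lower and Gabpa fell by 4.16 ± 0.17, and 7 at 48 h. The gene for the factor MYC was lower by 3.31 ± 0.29 at 52 h and by 1.50 ± 0.27 at 55 h.

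In morulae without pyruvate 29 of 35 tested members were lower than in standard medium and 0 higher, while 6.62% of all 16031 genes tested were lower and 32.8% higher. All 15 mRNAs and rRNAs were lower, with a median of -1.82 against 0.28 for all genes. In mt-Nd6 the 5 libraries were at 101, 8.44, 9.06, 50.3 and 23.4 CPM against 65.1 to 786 (median 190.0) CPM in standard medium, a drop of 2.97 ± 0.57 (adjusted p = 0.000315) with overlap. The complex IV gene mt-Co1 was at 1678, 67.9, 67.8, 655 and 212 CPM against 553 to 3569.8 (median 1915) CPM, a drop of 2.71 ± 0.64 (adjusted p = 0.00213). At the other end mt-Nd4l fell by 1.26 ± 0.42 and mt-Co2 and mt-Nd4 each by 1.40. Without morula replicates 1 and 2, 20 of the 35 members were lower, beside 8.76% of all genes, and 9 of the 15. The changes of mt-Nd6 and mt-Co1 were then -2.33 and -2.345. Those of the 15 that no longer passed were mt-Co3 (-1.20), mt-Atp6 (-1.13) and mt-Nd1 (-1.02), and mt-Nd4l, mt-Co2 and mt-Nd4, each at -0.87 or -0.86. Of the 71 nuclear subunits 25 were higher and 0 lower (35.2% higher, median 0.28, near the values of all genes), and Twnk was lower by 1.72 ± 0.37. Without those replicates 44 subunits were higher, beside 32.4% of all genes, and with median-ratio scaling 8, beside 22.0%.

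Morulae without lactate had 10 members higher than in standard medium and 0 lower, beside 8.37% and 3.42% of all genes. Of the 15, mt-Cytb (1.71 ± 0.56), mt-Co3 (1.65 ± 0.51), mt-Atp8 (1.62 ± 0.52) and mt-Co2 (1.43 ± 0.44) were higher, and the median was 1.03 against 0.10 for all genes. The libraries of mt-Cytb were at 43781, 38774, 38997, 51905 and 31972 CPM, each above the highest standard morula. The count of the 15 depended on the libraries and the setting. It was 10 without morula replicates 1 and 2, when 22 members and 11.7% of all genes were higher. It was 1 with median-ratio scaling, beside 6.75% of all genes, and 0 without the filter on low values. With 1 library left out it ran from 0 (without morula replicate 3) to 8 (without morula replicate 1). Of the nuclear subunits 9 were lower and 0 higher, or 12.7% where 3.42% of all genes were lower.

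Between inhibitor morulae and morulae without pyruvate 33 of 35 members were higher and 0 lower, while 8.61% of all genes were higher and 67.1% lower. All 15 mRNAs and rRNAs were higher, with a median of 2.89 against -0.90 over all genes. The complex V gene mt-Atp6 was at 10548, 9178, 10284 and 5125 CPM with the inhibitor and 1128, 153, 182, 1239 and 725 CPM without it, a difference of 4.10 ± 0.49 (adjusted p = 2.34e-07) in which the groups did not overlap. The largest differences were those of mt-Atp8 (5.27 ± 0.58), mt-Nd3 (4.71 ± 0.50), mt-Nd4l (4.32 ± 0.47) and mt-Co2 (4.28 ± 0.49), and the smallest of the 15 that of mt-Nd2 (1.62 ± 0.58). Of the nuclear lists 46 of 71 subunits were lower and 8 higher (median -0.68), as were 17 and 1 of the 24 transcription genes. Both were near the 67.1% of all genes that were lower and the 8.61% that were higher. Of the 31 processing genes 29 were lower and 0 higher. With median-ratio scaling, 30 subunits were higher and 10 lower, and 10 processing genes were lower and 1 higher. In the same libraries trophectoderm markers summed to 107 to 164 CPM against 352 to 1157 CPM without the inhibitor, and genes of the 2-cell stage to 1888 to 2118 against 473 to 1397 CPM; their part in the difference was not tested.

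In blastocysts without pyruvate 13 of the 29 members tested were higher than in standard medium and 0 lower, while 80.8% of all 14312 genes tested were higher and 7.14% lower. Only mt-Nd2 (1.29 ± 0.40, adjusted p = 0.00592) and mt-Rnr1 (1.56 ± 0.63, adjusted p = 0.0266) of the 15 passed, and the median of the 15 was 0.15 where that of all genes was 1.15. With median-ratio scaling none of the 15 was higher and 8 were lower (median -1.18), and the changes of 14 of the 15, all but mt-Rnr1, were then negative. Without blastocyst replicate 1, 4 of the 15 were lower and 1 was higher. Of the nuclear subunits 35 were lower and 9 higher, whereas all 31 processing genes and 23 of the 24 transcription genes were higher, as were 80.8% of all genes, Twnk by 2.35 ± 0.27. With median-ratio scaling all 71 nuclear subunits were lower (median -1.68), where 28.4% of all genes were lower and 30.1% higher.

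Blastocysts without lactate had 14 members higher and 0 lower, beside 14.0% and 9.29% of all genes. Of the 15, 10 were higher, with a median of 1.60 against 0.07. The libraries of mt-Nd1 were at 18432, 19055, 15553 and 21291 CPM against 3924, 15238, 8748 and 16752 CPM in standard medium, with overlap and a difference of 0.93 ± 0.33 (adjusted p = 0.0476). Larger differences were those of mt-Nd3 (3.55 ± 0.61), mt-Nd4l (2.29 ± 0.53) and mt-Rnr2 (2.17 ± 0.56), while mt-Co1 (0.22 ± 0.65, adjusted p = 0.839) did not pass. Without the filter on low values 4 of the 15 passed.

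From morula to blastocyst in standard medium 8 members rose and 13 fell, where 19.4% of all 16991 genes tested rose and 51.9% fell. Of the 15, 7 rose, with mt-Co3 at 3.21 ± 0.56 and mt-Co2 at 2.87 ± 0.46, and mt-Nd2 (a drop of 2.37 ± 0.53) and mt-Rnr1 (a drop of 1.54 ± 0.67) fell. Without morula replicates 1 and 2 mt-Rnr1 no longer passed (-0.56, adjusted p = 0.401), while mt-Nd2 did (-1.80), and mt-Co3 and mt-Co2 were at 3.45 and 3.41. Of the 15, 8 then rose, mt-Nd4 (1.33) among them, and 1 fell. Without pyruvate 25 members rose and 0 fell (32.4% and 33.9% of all genes), and all 15 mRNAs and rRNAs rose, from 1.31 ± 0.52 in mt-Nd2 to 4.82 ± 0.55 in mt-Co3. Without lactate 11 rose and 13 fell (18.4% and 52.7% of all genes), 10 of the 15 upwards. The change in medium without pyruvate exceeded that in standard medium in 28 members and was below it in 0, as tested by the interaction of age and pyruvate (46.0% and 12.1% of all genes). Among the 15 it exceeded it in 10, by 4.02 ± 0.94 in mt-Rnr1, 3.97 ± 0.85 in mt-Nd6 and 3.68 ± 0.75 in mt-Nd2, and this count was 3 with median-ratio scaling, 5 without morula replicates 1 and 2 or without blastocyst replicate 1, and 14 without blastocyst replicate 4. For lactate the interaction passed in 2 members upwards and 2 downwards (4.04% and 5.54% of all genes), none of them among the 15; without morula replicates 1 and 2 it was 1 upwards and 6 downwards.

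The tRNA genes were low throughout, with a summed share of 0.000928% to 0.100% of the library. From early to late 2-cell embryos 21 of 22 rose, beside 57.7% of all genes, and with median-ratio scaling 11 of 21 did, beside 36.0%. In morulae without pyruvate 14 of the 20 tested were lower, beside 6.62% of all genes, and 11 were without morula replicates 1 and 2. The row of mt-Ts1 was at 103, 2.55, 1.85, 36.1 and 11.5 CPM in these morulae and at 30.4 to 256 (median 112) CPM in standard ones, a drop of 2.93 ± 0.69 (adjusted p = 0.00199). That of mt-Tq, at 25.6, 1.29, 1.59, 15.4 and 7.35 CPM, fell by 2.99 ± 0.55. Without morula replicates 1 and 2 the changes of mt-Ts1 and mt-Tq were -2.50 and -2.40. Without lactate 4 of 14 tested tRNAs were higher in blastocysts, beside 14.0% of all genes. Among them was mt-Tl1 at 15.02 to 18.7 CPM against 1.56, 3.65, 1.72 and 6.75 CPM in standard medium, a difference of 2.15 ± 0.26 (adjusted p = 2.03e-05) without overlap. It did not pass between inhibitor and no pyruvate morulae (0.64 ± 0.37, adjusted p = 0.118).

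Genes that share an mRNA were not at a fixed ratio. Per kilobase, mt-Nd4l stood at 0.338 ± 0.00940, 0.321 ± 0.00918 and 0.361 ± 0.0305 of mt-Nd4 (mean ± SD) in early, mid and late 2-cell embryos, and at 0.113 ± 0.0116 in early 4-cell, 0.0868 ± 0.0161 in early 8-cell embryos and 0.114 ± 0.0275 in morulae. In early 16-cell embryos it was 0.365 ± 0.0141 and in early 32-cell embryos 0.330 ± 0.0102, and these libraries did not overlap with the morulae. Without replicates 1 and 2 the morulae gave 0.124 ± 0.0282. At 78 h it was 0.119 ± 0.0232 without pyruvate, 0.144 ± 0.0208 without lactate and 0.338 ± 0.0182 with the inhibitor. The ratio of mt-Atp8 to mt-Atp6 went from 1.12 ± 0.0193 in late 2-cell to 0.499 ± 0.0514 in early 4-cell and 1.11 ± 0.0644 in early 16-cell embryos, and it was 1.11 ± 0.0739 in inhibitor morulae against 0.503 ± 0.163 without pyruvate. With the copies added, the mt-Nd4l ratio was 0.776 ± 0.0159 in early 2-cell, 0.208 ± 0.0174 in early 4-cell and 0.855 ± 0.0218 in early 16-cell embryos, and 0.785 ± 0.0291 with against 0.234 ± 0.0659 without the inhibitor in morulae without pyruvate. The mt-Atp8 ratio was then 0.566 ± 0.0102 in late 2-cell, 0.315 ± 0.0330 in early 4-cell and 0.580 ± 0.00489 in early 16-cell embryos. Adding the copies thus changed the size of both ratios, and what part the split of reads between members and copies had in the differences was not tested. The copies differed alongside these ratios: their sum was 21.9% of the members in early 2-cell and 20.1% in inhibitor morulae, and 8.02% in morulae without pyruvate. What part library preparation had in the ratios was not tested, and it cannot be told apart from stage or treatment where all libraries of a group share a value.

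**Figure D5:**
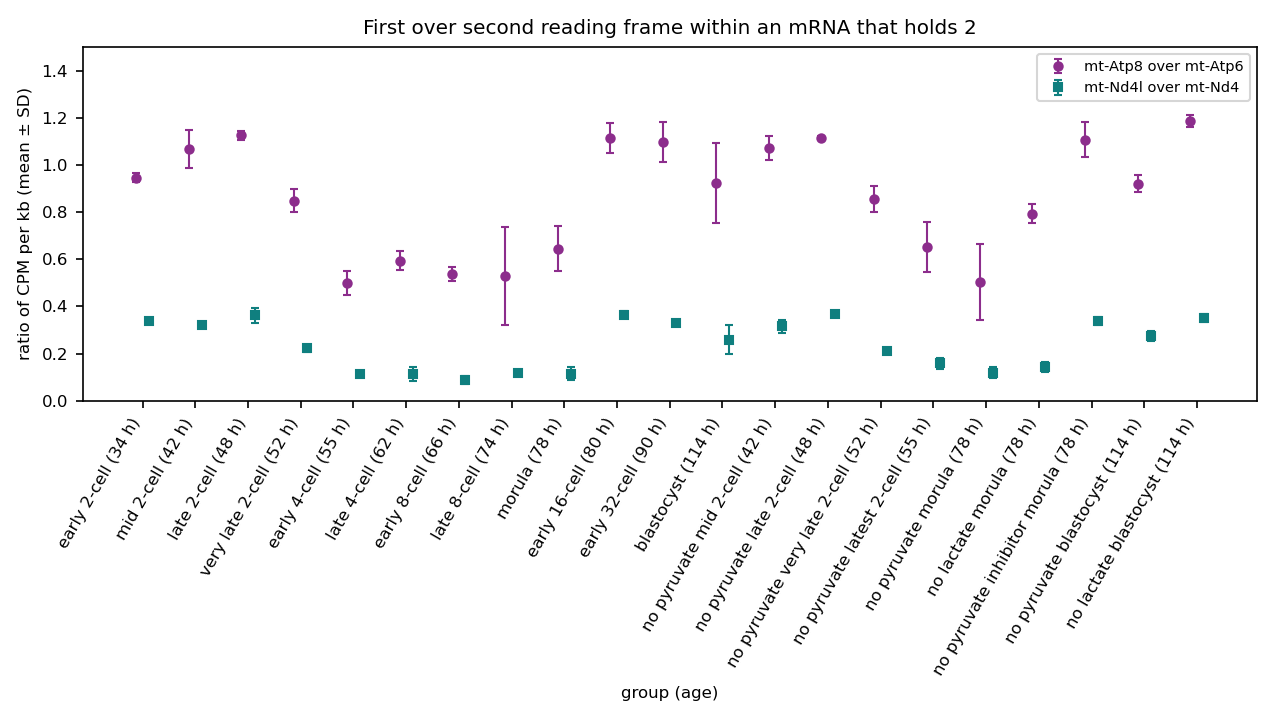
Level per kilobase of mt-Nd4l relative to mt-Nd4 and of mt-Atp8 relative to mt-Atp6 (y axis, ratio, mean with SD) in the 21 groups. The mt-Nd4l ratio averages 0.338 in early 2-cell embryos and in inhibitor morulae, and 0.0868 in early 8-cell embryos.

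Over the means of the 21 groups the members ran together to different degrees, given here as Spearman's rho over groups that share their normalization, as a description. The pairs mt-Atp6 and mt-Atp8 (0.978) and mt-Co2 and mt-Atp6 (0.977) were the closest, and mt-Nd2 was the farthest from mt-Co3 (0.0779) and mt-Nd4l (0.0870). Outside the mitochondrial genome, among 10618 genes, the summed members were followed most closely by the nuclear copy Gm28661 (0.856), by B2m (0.818), which encodes the light chain of MHC class I, by the copies Gm10925 (0.778) and Gm28437 (0.775), by Gm15564 (0.778), and by Lars2 (0.768), the mitochondrial leucyl-tRNA synthetase. CT010467.1 (0.762) and Gm9029 (0.749) came next. What sets these rows beside the members was not tested.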

How the data were processed

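Smart-seq2 libraries of mouse embryos were measured by RNA sequencing. The deposited values are CPM (counts scaled to a fixed library total) plus an offset of 0.0001, which was removed, per gene and library; reads were aligned to mm10 with STAR 2.6.1d per the submitters' processing notes, and the counter is not given in the sources used here. Of the columns 85 matched a sample and 6 were not used. Rows named by numbers (26, at most 0.194% of a library) were left out. The design had allowed for counts, but values of up to 20 reads were within 0.1 of a whole read in only 70.9% to 78.9% of cases, so no count test was run.

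Shares, rRNA percent and ratios were compared in 29 comparisons each by exact two-sided permutation tests with Benjamini-Hochberg adjustment within a measure. Single genes were tested with limma 3.58.1 (R 4.3.3) on log2(CPM + 1), keeping a gene where 3 or more of the fitted libraries exceeded 1 CPM, with a trended prior, Benjamini-Hochberg adjustment over all genes and a threshold of 0.05. All members were to be described and those above 1 CPM in every library named. Lists name at most the 3 genes with the largest change. Nuclear copies were sought with blastn 2.17.0+ among GENCODE vM21 transcripts, and sequences were read from the same annotation's transcripts. The fit was tested on simulated data for 48 h without pyruvate over 20736 genes: 141 of 200 genes changed 2-fold and 198 of 200 changed 4-fold were recovered. The members and lists were chosen with earlier results of these data known. The sum of members with their nuclear copies, and the described make-up and ratios without standard morula libraries 1 and 2, are alternatives chosen after seeing the data.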

Additional observations from a re-analysis of the deposited data

Results flagged for a closer look

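Of 288 groups of 4 to 6 libraries, over the 18 genes detected in every library, 17 held a library far from the others. This was near the 1 in 20 that chance gives, and flags of 1 library in several genes are not independent. Morula replicate 1 was high in mt-Nd2 (9402 CPM, the other 5 at 1084 to 4099.9), mt-Nd6 (786 CPM), mt-Rnr1 (1215 CPM), mt-Rnr2 (18655 CPM) and mt-Tq (251 CPM). Late 4-cell replicate 4 was low in mt-Nd4l (20.5 CPM), mt-Atp6 (492 CPM) and mt-Atp8 (91.1 CPM), and replicate 5 of the morulae without lactate in mt-Nd2 (2405 CPM), mt-Nd5 (629.6 CPM) and mt-Atp8 (513 CPM). Single values apart from their groups were mt-Nd3 in blastocyst replicate 4 (299 CPM, the other 3 at 9.46 to 29.3), mt-Nd5 (738 CPM) in early 4-cell replicate 3, mt-Co2 (531 CPM) in early 4-cell replicate 2 and mt-Nd6 (204 CPM) in early 16-cell replicate 1. The same held for mt-Co3 (1994 CPM) in replicate 1 of the blastocysts without pyruvate and mt-Tq (81.2 CPM) in replicate 4 of the late 2-cell embryos without pyruvate. Over the share of the library and 3 other summed measures, 0 of 64 groups held such a library.

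The change from morula to blastocyst was larger without pyruvate than in standard medium, by a test of the difference itself in limma, in 13 of the 18 genes, beside 46.0% of all genes; 7 of the 18 passed without standard morula libraries 1 and 2 and 5 with median-ratio scaling. On the log2 scale the difference was 4.02 in mt-Rnr1, 3.97 in mt-Nd6, 3.86 in mt-Tq, 3.68 in mt-Nd2, 2.84 in mt-Nd5, 2.63 in mt-Cytb and 2.57 in mt-Co1. It was 2.42 in mt-Tl1, 2.41 in mt-Ts1, 2.36 in mt-Nd3, 2.09 in mt-Rnr2, 1.68 in mt-Atp8 and 1.33 in mt-Nd1. Those that no longer passed without these 2 libraries were mt-Nd1, mt-Nd3, mt-Co1, mt-Atp8, mt-Rnr2 and mt-Ts1. For lactate the difference was 1.58 in mt-Tl1, and 1.29 without the 2 libraries, which did not pass (adjusted p = 0.0583).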

How the results depend on the processing

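With the nuclear copies added, the share of the library kept its 6 calls, and the rRNA percent and the ratio to nuclear mRNA again had 0 after adjustment (lowest adjusted p 0.0575 in both); of the described means by complex and within an mRNA 114 moved by more than 1 SD and 12 did not. Standard morula libraries 1 and 2 had the highest shares of their group. Without them the share was 3.52 percentage points higher in early 16-cell embryos than in morulae and 4.70 higher without lactate in morulae, both passing. On the log2 scale the inhibitor difference (2.94) no longer passed, nor did that of blastocysts and morulae without lactate from mRNAs alone (4.04). Libraries were not treated as paired. In every comparison the deviations of at least 1 same-numbered pair correlated at 0.1 or less, and in none did each library correlate best with its own number. In 2-cell embryos without pyruvate against standard at 42 h, and in blastocysts against morulae without lactate, 3 of 4 did. In several groups the replicate numbers differ from those in the column names, so whether libraries were paired could not be decided. With the replicate block the difference of morulae from late 8-cell embryos was 4.31 for the share and 9.86 for the rRNA percent. The counts among the 15 mRNAs and rRNAs were then 1 higher at 48 h, 0 higher in morulae without lactate and 1 higher in blastocysts without pyruvate.

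Median-ratio scaling gave 0 higher in late 2-cell embryos, 3 lower at 42 h, 3 higher and 0 lower at 48 h, 1 higher in morulae without lactate, 0 higher and 8 lower in blastocysts without pyruvate, 1 lower from morula to blastocyst and 3 for the interaction with pyruvate. Among changes that passed in either scaling, it turned mt-Nd1 (-0.24), mt-Co3 (-0.12), mt-Atp6 (-0.38) and mt-Atp8 (-0.13) in late 2-cell embryos. In blastocysts without pyruvate it turned mt-Nd2 (-0.0468), mt-Nd4 (-1.29), mt-Cytb (-0.91) and mt-Co3 (-1.17), and from morula to blastocyst without lactate mt-Tl1 (0.0243). Without standard morula libraries 1 and 2 there were 9 lower without pyruvate and 10 higher without lactate in morulae, 1 lower from morula to blastocyst and 5 for the interaction with pyruvate. Without the filter there were 0 higher in morulae and 4 in blastocysts without lactate, 1 in blastocysts without pyruvate, 1 lower from morula to blastocyst and 6 for the interaction. With only the groups compared there were 1 higher at 48 h, 1 lower from morula to blastocyst in standard medium and 3 lower without lactate. The total without the members gave 1 lower from morula to blastocyst. Of the counts over nuclear lists 59 moved by more than 1.5 times with median-ratio scaling and 77 did not; over all alternatives 253 moved and 2115 did not. The cause of these shifts was not tested.

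Leaving out 1 library gave 1.72 to 3.10 for early 16-cell embryos against morulae, 2.77 to 3.18 for 48 h against 42 h without pyruvate, 2.90 to 4.28 for morulae without lactate, 4.52 to 6.03 for the inhibitor, -7.07 to -5.60 for blastocysts without pyruvate against those without lactate, and 4.18 to 5.65 for blastocysts against morulae without lactate. Counts became 1 to 2 lower from early 8-cell to blastocyst, 0 to 1 higher at 48 h, 1 to 7 higher at 52 h, 0 to 8 higher in morulae without lactate, 1 to 4 higher and 0 to 4 lower in blastocysts without pyruvate, 1 to 2 lower from morula to blastocyst, 5 to 14 for the interaction with pyruvate and 0 to 2 for that with lactate; mt-Nd4 in blastocysts without pyruvate ran from -0.66 to 0.56. Of 5328 values of single genes under alternatives, 4933 kept their side of the threshold with no turn of direction in a change that passed. Turns of direction where neither fit passed are counted among these 4933. Tests on counts were not run.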
